A study of Mus musculus with 8 samples.

Results

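The Isg15 conjugation pathway was examined in mouse pluripotent stem cells through its 5 genes, Isg15, Uba7, Ube2l6, Herc6 and Usp18, among 14390 named genes tested. The genes were chosen as a known pathway with their levels in view, so the differences between groups given for them describe these arrays and carry no test. A probe was assigned to a gene where its RefSeq transcript belonged to that gene. All 5 genes had a probe that passed the filter on dim probes, and Isg15 and Herc6 each had 2 such probes. In RefSeq on GRCm38.p6, Isg15 lies at chr4:156199424-156200818, Uba7 at chr9:107975567-107984056, Ube2l6 at chr2:84798828-84810003, Herc6 at chr6:57580992-57665136 and Usp18 at chr6:121245906-121270917.

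The series measured total RNA from undifferentiated cells of strain C57BL/6J on one-colour Agilent arrays, 1 array per sample. There was 1 array of an embryonic stem cell (ESC) line labelled B6J-23, 4 arrays of induced pluripotent stem cells (iPSCs) labelled OSKH and 3 arrays of iPSCs labelled OSK, which are the control group of the series. OSK is the usual short form for the reprogramming factors Oct4, Sox2 and Klf4, and H is taken here for the oocyte linker histone H1foo. The labels do not spell out these letters, the starting cells or the vector, nor do they tell whether the replicate arrays came from different lines, clones or dishes, so any spread between them may be technical.

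Isg15 is a small protein built from ubiquitin-like domains, and its gene is among those most strongly induced by type I interferon. It is joined to other proteins by a chain of enzymes: Uba7 activates it, Ube2l6 carries it, and Herc6, the main Isg15 ligase of mouse cells, transfers it to its target. Usp18 removes Isg15 again and also binds Stat2 and Ifnar2 to restrain the type I interferon receptor, and pluripotent stem cells are known for a weak response to interferon.

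The stretches of 250 bases before the start of 3 of the genes are shown because interferon-stimulated genes often carry an interferon response element there. They are from RefSeq on GRCm38.p6, 5′ to 3′ on the strand of each gene: chr4:156200819-156201068 on the minus strand for Isg15, chr9:107975317-107975566 on the plus strand for Uba7 and chr6:57580742-57580991 on the plus strand for Herc6. Capitals mark every match to GAAANNGAAA, the core of that element.
Isg15: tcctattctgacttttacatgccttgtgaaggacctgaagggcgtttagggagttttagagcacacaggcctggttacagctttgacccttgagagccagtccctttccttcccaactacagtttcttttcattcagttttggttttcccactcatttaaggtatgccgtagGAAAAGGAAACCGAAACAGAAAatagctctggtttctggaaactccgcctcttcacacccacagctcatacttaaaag
Uba7: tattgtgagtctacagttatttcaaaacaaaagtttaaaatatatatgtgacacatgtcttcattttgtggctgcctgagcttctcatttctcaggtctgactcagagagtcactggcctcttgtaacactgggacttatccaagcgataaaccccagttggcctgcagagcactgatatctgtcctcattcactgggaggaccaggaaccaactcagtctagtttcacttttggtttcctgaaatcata
Herc6: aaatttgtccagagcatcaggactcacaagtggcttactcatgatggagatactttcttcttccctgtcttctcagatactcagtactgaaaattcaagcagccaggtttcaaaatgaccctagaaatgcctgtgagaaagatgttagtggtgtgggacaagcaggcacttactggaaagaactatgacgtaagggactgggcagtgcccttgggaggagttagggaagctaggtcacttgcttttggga
The Isg15 stretch holds 3 matches that overlap into a run of 22 bases, which begins 78 bases before the start of the gene. The Uba7 and Herc6 stretches hold no match on either strand. The search takes exact matches alone, so a close variant of the core goes unmarked, and the lack of a match does not show that the element is absent. Ube2l6, on chromosome 2, had 0 matches in the same window, and Usp18 has no entry in the promoter table. With the search on both strands, reading TTTCNNTTTC as the reverse, and over windows of 300 bases that run on to 50 bases after the start, 3.44% of 32851 promoters held a match, or 1079 of 27025 genes (3.99%). Of 30 other interferon-stimulated genes with a promoter entry, 14 held one, a share of 46.7%. A match is a run of letters and not a measured binding site.

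In what follows a level is the log2 processed signal of a probe less the 75th percentile over the same array, which means that a level of 0 lies at that percentile and that 1 unit is a doubling. Levels are compared between arrays for 1 probe at a time, never between genes. The share of probes well above background ran from 51.4% to 59.0% over the arrays, and 0 were saturated. The arrays shared 1 slide. Its row 1 held ESC and OSKH 1 to 3 and its row 2 held OSKH 4 and OSK 1 to 3, per the file headers. The groups OSKH and OSK therefore met only in row 2, where OSKH is a single array. For OSKH 1 to 3 against OSK, slide row and group cannot be told apart. All 10 markers of pluripotent cells were well above background on all 8 arrays.

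Isg15, the modifier itself, was highest on OSKH 2, OSKH 3 and the ESC array, and lower on OSKH 4 and the OSK arrays. OSKH 1 lay between, 0.39 above OSK 1. Its level was 3.85 on the ESC array, and 2.73, 4.51, 4.53 and 2.02 on OSKH 1 to 4. It was 2.34, 1.26 and 1.67 on OSK 1 to 3. OSKH 1 to 3 lay above every OSK array, while OSKH 4 lay within the OSK range, so the iPSC groups overlapped. OSKH had a mean level of 3.45 ± 1.27 (SD, n = 4) against 1.75 ± 0.55 (SD, n = 3) for OSK, a difference of 1.69 with a standard error (SE) of 0.68, or 3.24-fold. Taken by slide row, OSKH 1 to 3 exceeded the OSK mean by 2.17, or 4.50-fold, and OSKH 4 exceeded it by 0.27, or 1.20-fold. In bulk RNA such as this, more cells with the transcript and more transcript per cell cannot be told apart.

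On the second Isg15 probe too, OSKH 1 to 3 lay above every OSK array and OSKH 4 within the OSK range. Its levels were -0.30 on the ESC array, -1.61, 0.31, 0.30 and -1.99 on OSKH 1 to 4, and -1.77, -2.97 and -2.56 on OSK 1 to 3. The difference between iPSC groups was 1.69 (SE 0.67), and the probes had a Pearson correlation of 0.997 over the 8 arrays. The swing of Isg15 from its lowest to its highest array was 9.67-fold.

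Uba7, the activating enzyme that begins conjugation, was higher on every OSKH array than on any OSK array, OSKH 4 included. Its level was -3.11 on the ESC array, -2.96, -2.89, -2.83 and -3.24 on OSKH 1 to 4, and -4.13, -4.55 and -4.23 on OSK 1 to 3. The ESC array lay among the OSKH arrays. OSKH averaged -2.98 ± 0.18 (SD, n = 4) against -4.30 ± 0.22 (SD, n = 3) for OSK, a difference of 1.32 (SE 0.14), or 2.50-fold. OSKH 4 alone exceeded the OSK mean by 1.06, or 2.09-fold, against 1.41 for OSKH 1 to 3.

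The Uba7 signal was dim. Its processed signals were 49.2 on the ESC array, 61.2, 67.6, 63.5 and 46.9 on OSKH 1 to 4, and 27.4, 20.1 and 24.6 on OSK 1 to 3. It was well above background on the ESC array and all 4 OSKH arrays, but on OSK 3 alone among the OSK arrays. The lowest signal well above background differed between arrays. It was 21.6, 22.6, 16.2 and 26.8 on OSKH 1 to 4, and 28.3, 27.2 and 21.5 on OSK 1 to 3. OSK 3 thus passed with a dimmer Uba7 signal than OSK 1. The fold values of Uba7 rest partly on OSK signals that were not well above background. Repeated spots near the mean level of Uba7 had a median SD of 0.23 log2 units. With normexp background correction, which here adds an offset of 50 to every signal and so pulls dim values together, the difference was 0.42, on the same side of 0.

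Ube2l6, the carrier enzyme, overlapped between the groups and was highest on OSKH 1. Its level was 2.79 on the ESC array, 3.91, 2.43, 2.75 and 2.31 on OSKH 1 to 4, and 2.49, 2.20 and 1.92 on OSK 1 to 3. OSK 1 lay above OSKH 2 and OSKH 4. OSKH averaged 2.85 ± 0.73 (SD, n = 4) against 2.21 ± 0.29 (SD, n = 3) for OSK, a difference of 0.64 (SE 0.39), or 1.56-fold. Without OSKH 1 the difference was 0.29. OSKH 4 differed from the OSK mean by 0.11 and OSKH 1 to 3 by 0.82.

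Herc6, the ligase, also had every OSKH array above every OSK array, though the order within each group differed from that of Uba7. Its level was -3.13 on the ESC array, -3.34, -2.80, -2.94 and -3.17 on OSKH 1 to 4, and -4.21, -4.19 and -3.99 on OSK 1 to 3. OSKH averaged -3.06 ± 0.24 (SD, n = 4) against -4.13 ± 0.12 (SD, n = 3) for OSK, a difference of 1.06 (SE 0.15), or 2.09-fold. OSKH 4 exceeded the OSK mean by 0.96, or 1.94-fold, and OSKH 1 to 3 by 1.10. OSKH 1 to 3 exceeded OSKH 4 by 0.14 for Herc6 and 0.34 for Uba7, beside 1.90 for Isg15 and 3.05 for Usp18. Uba7 and Herc6 had signals near background and Isg15 and Usp18 did not, so the sizes of these gaps cannot be compared directly. The gaps were also not tested against each other.

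Herc6 was also dim, with processed signals of 48.4 on the ESC array, 46.9, 72.0, 59.1 and 49.2 on OSKH 1 to 4, and 26.0, 25.8 and 29.0 on OSK 1 to 3. It was well above background on all OSKH arrays and on 1 of 3 OSK arrays, and the difference under normexp was 0.33. The fold values of Herc6 thus also rest partly on OSK signals that were not well above background. Its second probe failed to rise well above background on the OSK arrays and gives only a bound there. The OSKH mean of that probe was -3.58 ± 0.39 (SD, n = 4), at least 1.54-fold above the OSK arrays, counting each OSK array at the lowest signal well above background where that exceeded its own. The values of both Herc6 probes placed every OSKH array above every OSK array and had a Pearson correlation of 0.864 over the 8 arrays. For the second probe, which passed the filter through the ESC and OSKH arrays alone, these OSK values lie within background. Its OSKH 1 signal, 27.5, was below the lowest signal well above background on OSK 1, 28.3. Full separation of the groups is therefore not shown by that probe, and the correlation rests partly on unmeasured values.

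Usp18, the protease that removes Isg15, was lower on OSKH 4 than on any other OSKH array, and 3.05 below their mean. Its level was 1.10 on the ESC array, 0.80, 1.87, 2.36 and -1.37 on OSKH 1 to 4, and 0.12, -0.49 and -0.31 on OSK 1 to 3. OSKH 1 to 3 lay above every OSK array, and OSKH 4 was the lowest of all 8 arrays. OSKH averaged 0.92 ± 1.66 (SD, n = 4) against -0.23 ± 0.31 (SD, n = 3) for OSK, a difference of 1.15 (SE 0.85), or 2.22-fold. OSKH 1 to 3 exceeded the OSK mean by 1.91, or 3.76-fold, whereas OSKH 4 stood at -1.14 against it, or 0.454-fold. Paired by array number, which leaves out OSKH 4, the difference was 1.91 (SE 0.45), and without OSKH 3 it was 0.67.

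**Figure D1:**
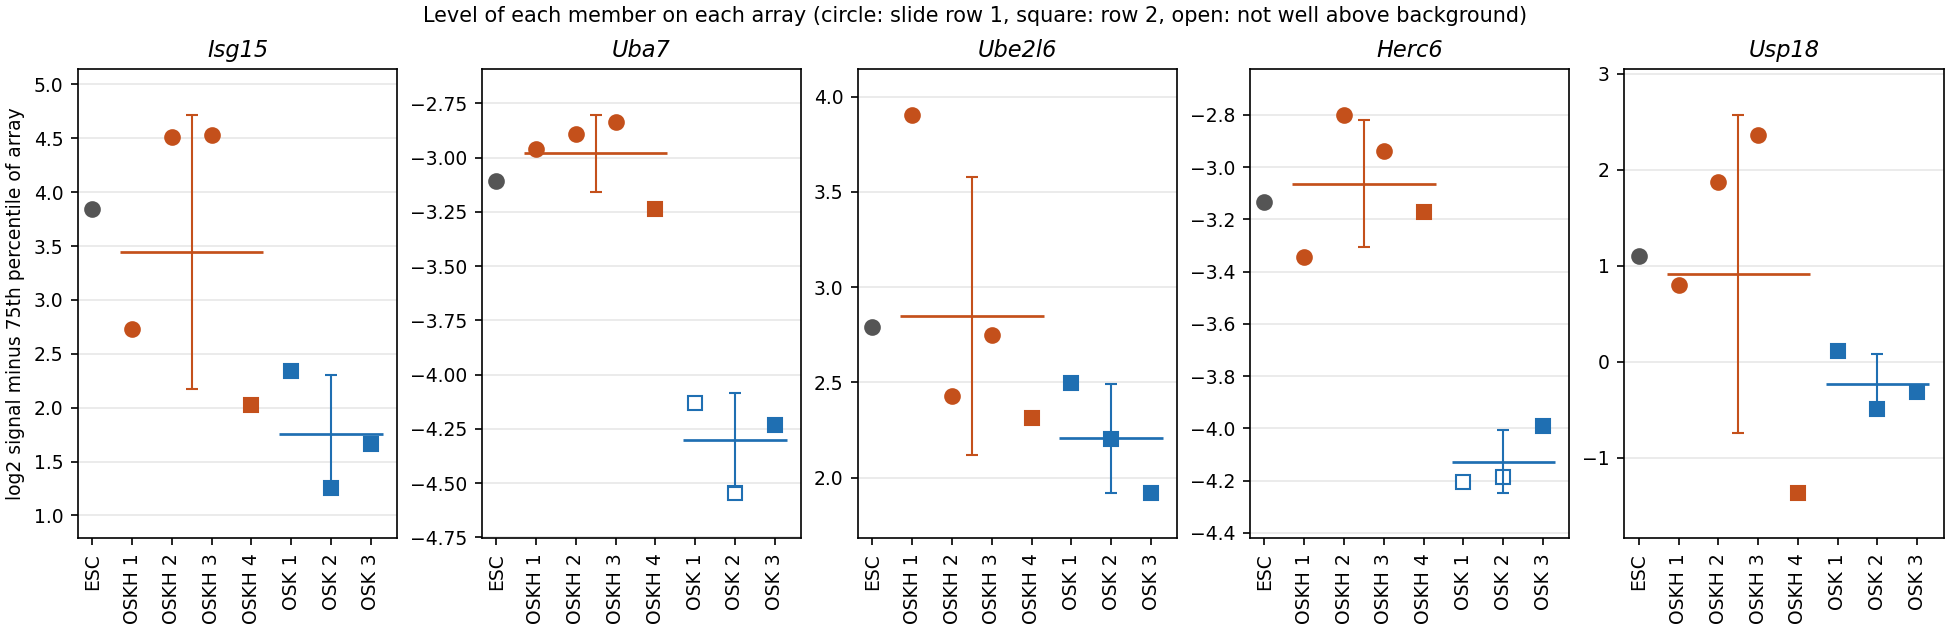
Level of each gene on each array, as log2 signal minus the 75th percentile of the array, with horizontal lines at group means, bars for SD (OSKH n = 4, OSK n = 3), circles for slide row 1, squares for row 2 and open symbols where not well above background. The vertical axis differs between genes, and the OSKH 4 square stays above the OSK squares for Uba7 and Herc6, falls among them for Isg15 and Ube2l6, and lies below them for Usp18.

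The 5 genes thus fell into different patterns by array. Every OSKH array exceeded every OSK array for 2 of 5 genes, Uba7 and Herc6, beside 3.14% of all features tested (713 of 22685), and since the genes were chosen on this contrast nothing is read from that count. OSKH 4 alone exceeded all OSK arrays in 24.6% of features. Taken array against array by number, OSKH minus OSK was 0.39, 3.25 and 2.87 for Isg15 in numbers 1 to 3. It was 0.69, 2.37 and 2.67 for Usp18, smallest in number 1 for both genes, where OSK 1 was also the highest OSK array. For Ube2l6 it was 1.41, 0.23 and 0.83, the largest in number 1. Uba7 differed by 1.17, 1.66 and 1.40, and Herc6 by 0.86, 1.39 and 1.05. Both had signals near background, so their ranges across numbers are not compared with those of the other genes.

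Over the 8 arrays, Uba7 and Herc6 had a Pearson correlation of 0.953 and Isg15 and Usp18 one of 0.909. Isg15 correlated with Herc6 and Uba7 at 0.824 and 0.821, and Ube2l6 with the other genes at 0.322 to 0.578. These values describe 8 arrays of 1 slide that share groups and slide rows, and they carry no p-value. Neither Uba7 nor Herc6 was well above background on OSK 1 or OSK 2. Their correlations, and the average that follows, therefore rest partly on unmeasured values. Averaged over the genes, each centred on its mean and divided by its SD, the pathway stood at 0.54 SD units on the ESC array, 0.66, 0.83, 0.98 and -0.35 on OSKH 1 to 4, and -0.62, -1.10 and -0.94 on OSK 1 to 3. OSKH 4 lay between the other OSKH arrays and the OSK arrays on this average.

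**Figure D2:**
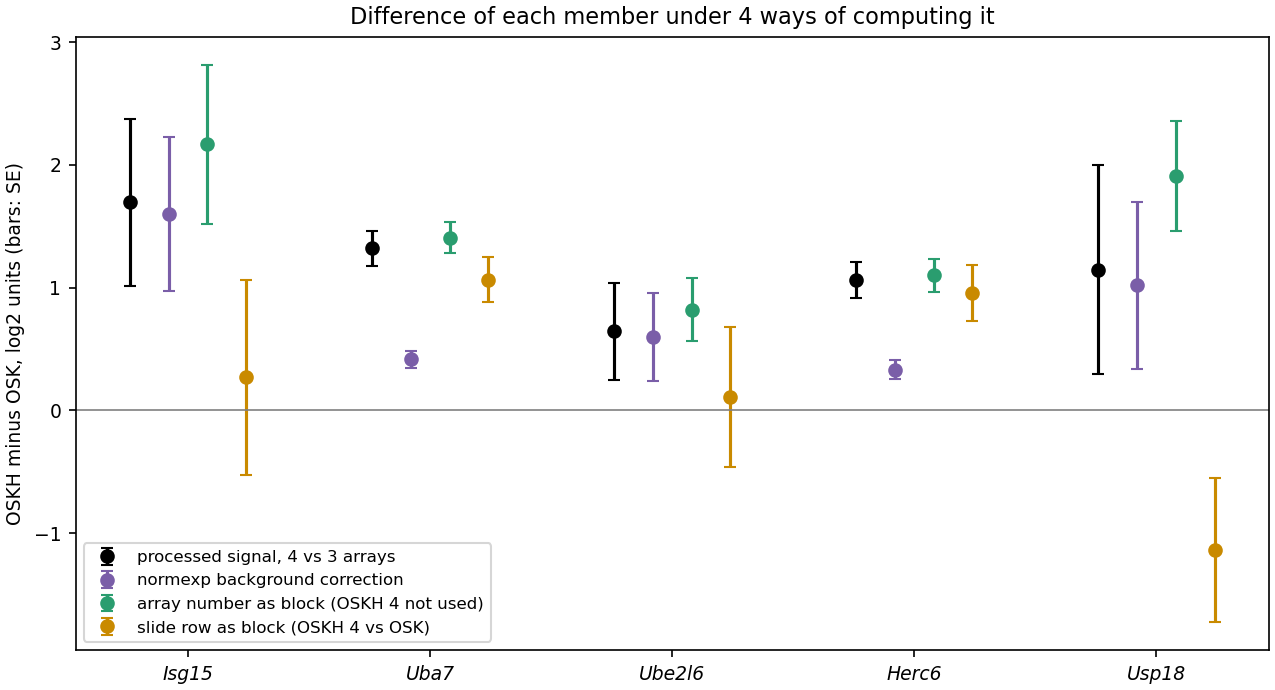
OSKH minus OSK difference of each gene in log2 units under 4 ways of computing it, with bars for the SE of the fit. With slide row as a block, which leaves only OSKH 4 against the 3 OSK arrays of row 2, Uba7 and Herc6 stay near 1, Isg15 and Ube2l6 move to 0.27 and 0.11, and Usp18 moves to -1.14.

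With slide row as a block, a comparison of the single array OSKH 4 with the 3 OSK arrays beside it, the difference was 0.27 (SE 0.80) for Isg15, 0.11 (SE 0.57) for Ube2l6 and -1.14 (SE 0.59) for Usp18. It was 1.06 (SE 0.18) for Uba7 and 0.96 (SE 0.23) for Herc6. Whether OSKH 4 stood apart through its place on the slide or through its cells cannot be told apart.

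The ESC array was compared with the iPSC groups for the same genes. Set against the OSK mean, the ESC level was higher by 2.09 for Isg15, 1.19 for Uba7, 0.59 for Ube2l6, 0.99 for Herc6 and 1.33 for Usp18. Set against the OSKH mean, it differed by 0.40 for Isg15, -0.13 for Uba7, -0.06 for Ube2l6, -0.07 for Herc6 and 0.18 for Usp18. For each gene the ESC level lay between the lowest and the highest OSKH array, and above the highest OSK array. There is a single ESC array and it shares row 1 with OSKH 1 to 3, so the line and the row cannot be told apart. In order of mean level, OSK came last for all 5 genes, while ESC and OSKH did not differ beyond the OSKH spread for any of them.

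Across all features, the limma fit with Benjamini-Hochberg adjustment called none of 22685 at a threshold of 0.05 between OSKH and OSK (0%), with 1469 at an unadjusted p under 0.05. It called 0% between ESC and OSK and 0% between ESC and OSKH, with 1368 and 992 at an unadjusted p under 0.05. With slide row as a block, which compares 1 OSKH array with the OSK arrays, 47 features were called between OSKH and OSK. In the fit without that block, 0 genes of the lists below passed the test in any of these comparisons, and higher or lower refers to the sign of the difference alone. Of all features, 46.3% were higher in OSKH than in OSK, and the median difference was -0.01.

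Direct partners of the pathway were spread from -0.15 to 0.64 in the comparison of iPSC groups. The 11 tested genes were other Isg15 ligases, the carrier enzymes Ube2e1 and Ube2e2, Isg15-removing enzymes and binding partners of Usp18. Of these, 4 were higher and 7 lower in OSKH, with a median of -0.04 and 0 at an unadjusted p under 0.05. The highest was Stat2, the interferon signal transducer that anchors Usp18 at the receptor, with a difference of 0.64 (SE 0.30). Its level was 2.07 on the ESC array, 2.60, 2.00, 2.27 and 1.31 on OSKH 1 to 4, and 1.62, 1.24 and 1.34 on OSK 1 to 3. OSKH 4 again lay among the OSK arrays. The lowest was Ifnar2, the receptor chain bound by Usp18, at -0.15 (SE 0.11). Usp5, a ubiquitin protease that also reacts with Isg15, differed by -0.10 (SE 0.07). Every OSKH array lay below every OSK array for it, as for 4.19% of all features, and nothing is read from that. Trim25, a ligase for Isg15 that was picked after its values were seen, differed by 0.18 (SE 0.20).

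Among interferon ligands and receptors, 8 of 14 genes were tested, and 6 were higher and 2 lower, with a median of 0.13. Il10rb, a receptor chain shared by interferon lambda and interleukin-10, was highest. It rose well above background on neither the OSK arrays nor the ESC array, and its OSKH mean of -3.78 ± 0.19 (SD, n = 4) was at least 1.35-fold above the OSK arrays. Of the type I interferon genes, Ifnb1 and Ifna4 did not pass the filter on dim probes. Ifna2, of a family of closely similar genes that a probe may not tell apart, was well above background on 3 of 4 OSKH arrays and 0 of 3 OSK arrays. With an OSKH array also unmeasured, no bound on its difference is given. Il10rb and Ifna2 passed the filter through OSKH arrays alone, so their place among the 6 higher genes is partly set by the filter. Its levels overlapped between the groups, with OSKH 2 at -4.10 and OSK 1 at -4.00. For interferon signalling proteins and sensors, 9 of 17 tested genes were higher and 8 lower, with a median of 0.06.

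Ifih1, the sensor of long double-stranded RNA, had the highest difference of the signalling list at 1.32 (SE 0.44), and Sting1, the adaptor for cytosolic DNA, the lowest at -0.69 (SE 0.35). Dhx58, a helper of Ifih1, differed by 0.66 (SE 0.22). It was the 1 gene of that list with every OSKH array above every OSK array, beside 3.14% of all features, and nothing is read from that count. Irf7 and Irf9, which amplify and carry the interferon signal, were picked after their values were seen. Irf9 stood at 2.74, 2.68, 2.70 and 1.52 on OSKH 1 to 4, and at 2.30, 2.03 and 1.95 on OSK 1 to 3. OSKH 4 lay below every other array for Irf9, as it did for Usp18, and for Irf7 too, where it was at -5.64 and not well above background.

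Of 35 other interferon-stimulated genes tested, 33 were higher in OSKH and 2 lower, where 46.3% of all features were higher. Their median difference was 0.60, beside -0.01 over all features. The list was chosen with earlier results of these data known, so nothing is read from its counts here. Of the 35 genes, 7 were higher at an unadjusted p under 0.05, beside 3.19% of all features (724 of 22685), and 0 passed the adjusted threshold. Trim30a, a regulator of inflammatory signalling, had the highest difference at 1.86 (SE 1.13), but was well above background on 3 of 4 OSKH arrays and 1 of 3 OSK arrays. That difference was 0.78 under normexp, 1.16 without OSK 2, 2.80 without OSKH 4 and -0.96 with slide row as a block. Ifit3b, of the family that binds foreign RNA ends, had the lowest at -1.41 (SE 0.98) and was well above background on 1 array of each iPSC group. OSK 1 stood at -0.93 and the other OSK arrays at -4.80 and -4.46, and without OSK 1 the difference was -0.18, while it was -0.53 under normexp. Every OSKH array exceeded every OSK array for Ifit3, for B2m, the light chain of class I antigen presentation, and for Lgals3bp, a secreted glycoprotein, which is 3 of 35 genes beside 3.14% of all features. Ifit3 was well above background on 1 of 3 OSK arrays. Pml, the scaffold of nuclear bodies, was the 1 gene with every OSKH array below every OSK array, beside 4.19% of all features (950 of 22685). The B2m level was 2.27 on the ESC array, 1.85, 1.83, 2.12 and 2.09 on OSKH 1 to 4 and 1.34, 1.31 and 1.39 on OSK 1 to 3, a difference of 0.63 (SE 0.10).

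The OSKH arrays of the slide rows also differed for this list. OSKH 1 to 3 exceeded the OSK mean by a median of 0.85 over the 35 genes, whereas OSKH 4 stood at a median of -0.14 and was above the OSK mean for 15 of them, near the 43.4% of all features for which it was. With slide row as a block, which rests on that array, 15 of the 35 were likewise higher and 20 lower, so the list did not keep its direction.

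**Figure D3:**
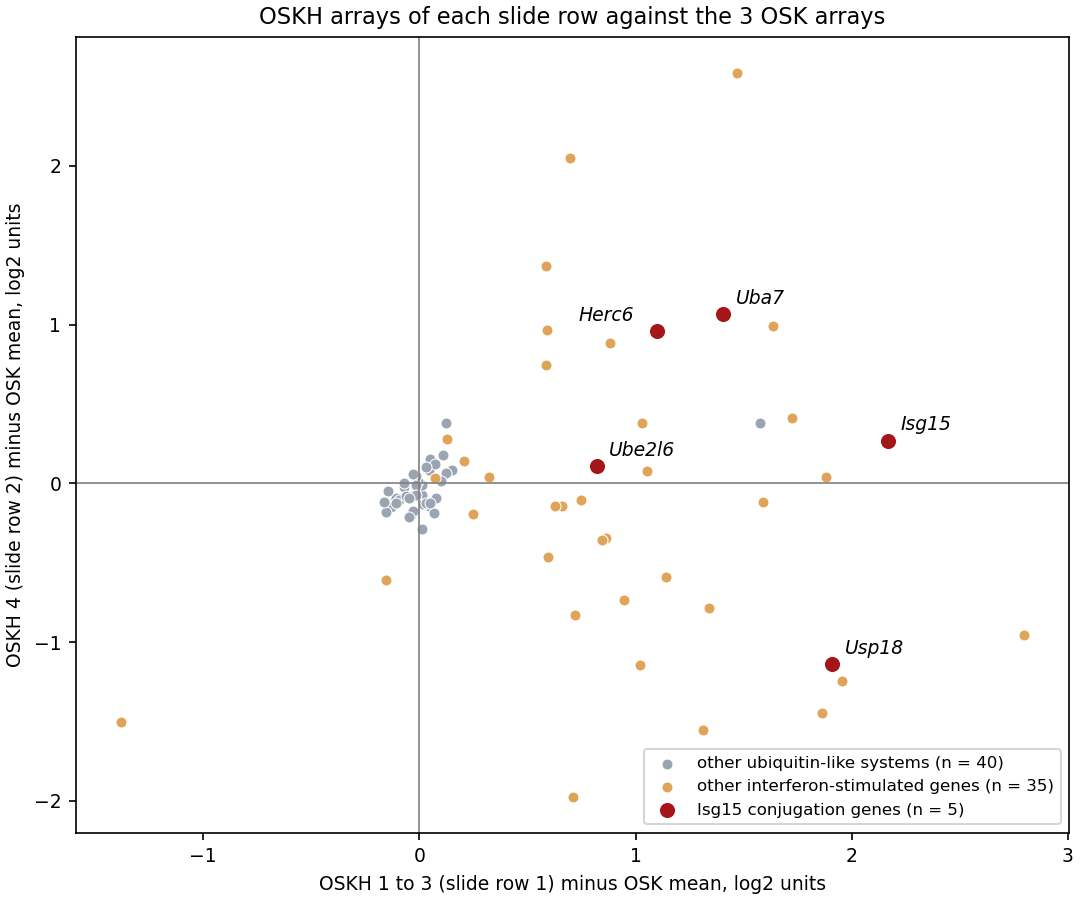
Difference from the OSK mean, in log2 units, for OSKH 1 to 3 (horizontal, slide row 1) and for OSKH 4 (vertical, slide row 2), with 1 point per gene; both axes share the OSK arrays, so no correlation is given. Uba7 and Herc6 lie high on both axes, Usp18 lies to the right and below 0, and the genes of other ubiquitin-like systems, apart from Ubd, gather near 0.

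Relatives of the enzymes in other ubiquitin-like systems lay close to 0, and small values of this kind changed sign with the processing: between 1 and 4 of the 9 E1 genes were higher over the settings tried. Of these 9 other E1 enzymes, which activate ubiquitin and its kin as Uba7 does for Isg15, 1 was higher and 8 lower, with differences from -0.16 for Mocs3 to 0.13 for Atg7. Atg7 had every OSKH array above every OSK array, and Mocs3 every one below, beside 3.14% and 4.19% of all features. Nothing is read from these separations. Uba1, the E1 of ubiquitin, differed by -0.01 (SE 0.07), with a sign that changed under some settings. Of 14 other E2 enzymes, 5 were higher and 9 lower, from -0.15 for Ube2f to 0.19 for Ube2m. Ube2l3, the nearest relative of Ube2l6, differed by 0.00 (SE 0.07). Both Uba1 and Ube2l3 were picked after their values were seen.

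The 4 tested HERC ligases other than Herc6 had a median difference of 0.01, with 2 higher and 2 lower, from -0.06 for Herc4 to 0.08 for Herc3. Of 13 genes for ubiquitin and other ubiquitin-like proteins, 7 were higher and 6 lower, and 12 of them lay between -0.12 and 0.13. The exception was Ubd, an interferon-inducible ubiquitin-like protein also called Fat10, with a difference of 1.28 (SE 0.82). Its level was 1.71 on the ESC array, 3.63, 0.42, 1.77 and 0.74 on OSKH 1 to 4, and 1.20, 0.45 and -0.56 on OSK 1 to 3. The groups overlapped, and OSKH 1 was the highest array, as for Ube2l6.

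**Figure D4:**
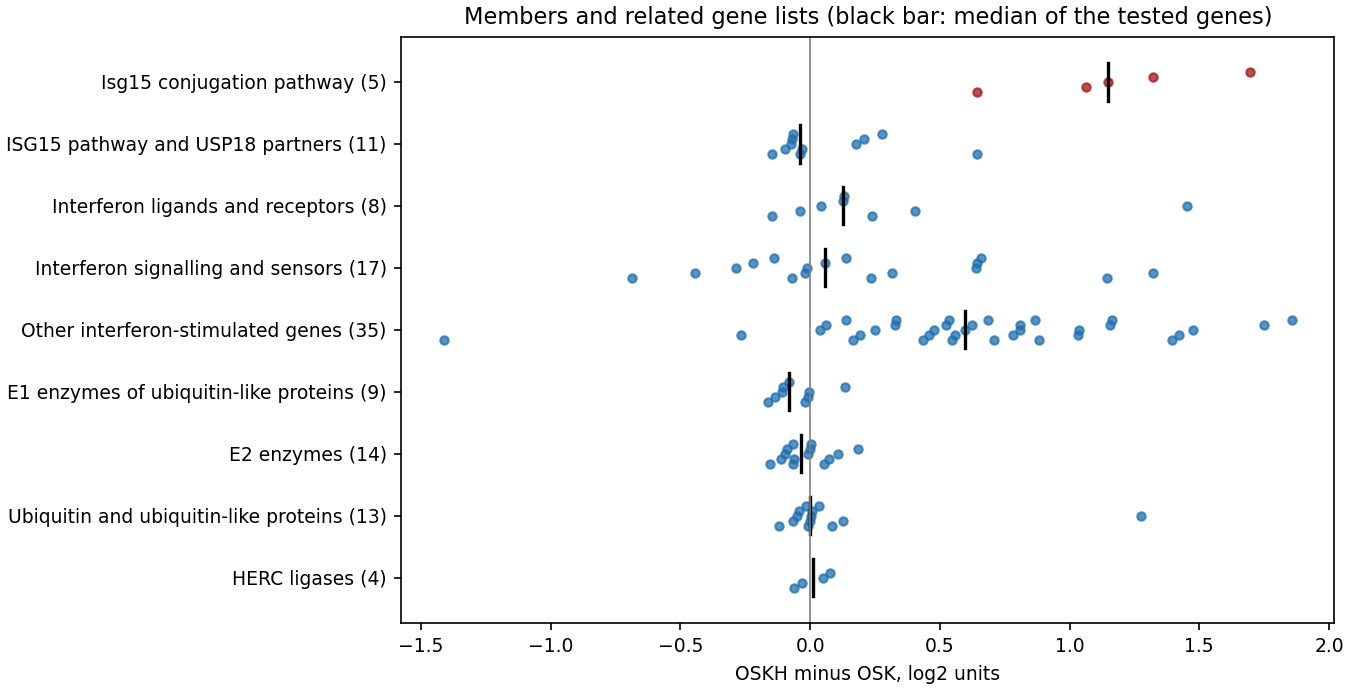
OSKH minus OSK difference in log2 units of the 5 genes (red) and of each related list (blue), 1 point per tested gene, with a black bar at the median. The 5 genes lie between 0.64 and 1.69, the other interferon-stimulated genes have a median of 0.60, and the medians of the other lists lie between -0.08 and 0.13.

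The named genes outside the pathway whose levels ran closest to the average of the 5 genes over the 8 arrays were Tmem260, Ppef2, Trim12c, Lgals3bp, Irgm2, Oas1f, Apol9b, Oas1a, 4933430I17Rik and Apol9a, with Pearson correlations from 0.962 down to 0.925. Of the members, Uba7 ran closest to the average, which includes it, at 0.946, and Ube2l6 least closely at 0.626. That average includes Uba7 and Herc6 on OSK 1 and OSK 2, where neither was well above background. The level of Lgals3bp, at 0.961, was 0.91 on the ESC array, 0.70, 0.74, 1.02 and 0.18 on OSKH 1 to 4, and -0.30, -1.26 and -0.90 on OSK 1 to 3. Its OSKH arrays all exceeded its OSK arrays, with OSKH 4 nearest to them.

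Markers of other cells were measured on the same arrays. The summed signal of 12 markers of fibroblasts and feeder cells, relative to the 75th percentile of each array, ran from 8.85 to 26.7 in OSKH, with OSKH 4 highest, from 5.74 to 10.8 in OSK, and was 24.1 on the ESC array. Of these markers 6 were well above background on all 8 arrays and 0 on none. Of the 9 tested, 9 were higher in OSKH than in OSK, with a median difference of 0.69. That rested on OSKH 4, which exceeded the OSK mean by a median of 2.97. Without OSKH 4, 6 were higher and 3 lower, with a median of 0.09. The sum of 8 leukocyte markers ran from 13.7 to 20.7 in OSKH, with OSKH 1 highest, and from 14.0 to 15.7 in OSK. It was 15.7 on the ESC array. Of the 7 tested, OSKH 1 was the highest array for Lyz2 (-0.82), Tyrobp (-1.79), Laptm5 (1.66), Fcer1g (-0.46), Adgre1 (-2.36) and Itgam (3.81). The other iPSC arrays ran from -4.12 to -3.52 for Lyz2, from -0.77 to 0.58 for Laptm5 and from 3.44 to 3.58 for Itgam. Csf1r was highest on the ESC array, at 1.10. Ptprc, which defines leukocytes, was well above background on 0 arrays. The sum of 7 endothelial markers ran from 7.17 to 10.4 in OSKH and from 7.79 to 9.60 in OSK, with Cdh5, Emcn, Erg and Tie1 not well above background on any array. The part of these cells in the results was not tested.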

How the data were processed

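Total RNA of 8 samples was measured on one-colour Agilent mouse arrays. Per the labels, RNA was labelled with Cy3 after amplification. Per the file headers and the submitters' processing notes, spots were read with Agilent Feature Extraction, version 11.5.1.1. The intensity taken from the deposited files is the processed signal, corrected for background within the array and not scaled between arrays. The well above background, saturation and outlier flags are deposited as 0 or 1. A table deposited by the authors on a log2 scale matched the processed signals minus a constant for each array, within 0.01 for 100% of probes, with column medians from -3.72 to -3.61, and served as an alternative. Its values were thus neither centred by gene nor reversed in sign, and the tool that made the table was not stated in the sources used here.

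Control spots and spots with an outlier flag were dropped, the other spots of a probe were averaged, and log2 values were set relative to the 75th percentile of each array (signals of 424 to 501). A probe entered where at least 3 of 8 arrays had it well above background, and the probe with the highest mean stood for its gene. RefSeq accessions were matched to symbols of GRCm38.p6 for 27650 probes, and 28017 probes had no match. The files name mm9 for their own annotation, so coordinates come from RefSeq alone. The 22685 features were fitted in limma 3.58.1 (R 4.3.3) over 3 groups, with 5 residual degrees of freedom and Benjamini-Hochberg adjustment at 0.05; other steps ran in Python 3.11.15. The script was tested on simulated data. The single ESC array was assumed to vary like the iPSC arrays. Precision is bounded by how few arrays there are.

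Members, lists and tests were chosen with earlier results of these data known. Named from each list were the tested genes with the highest and lowest OSKH minus OSK difference, and the 10 genes with the highest correlation with the average of the members. Other genes are said to be picked after their values were seen, are the few whose groups did not overlap, or are markers of other cells. OSKH and OSK arrays 1 to 3 share numbers in the labels and a slide column. Deviations from the group means of same-numbered arrays correlated at 0.47, 0.26 and 0.45, and those of differently numbered arrays at -0.39 to 0.16. Pairing of samples and a shared slide column cannot be told apart here, and the labels do not say what the numbers mean. The numbers were used as pairs on that footing alone. Normexp was run on the median spot signal and the local background, because the mean signal was not used here. Alternatives covered background, scaling, filter, choice of probe, the deposited table, slide row and number as blocks, and each array left out.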

Additional observations from a re-analysis of the deposited data

Results flagged for a closer look

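Of 41 named genes examined, not counting markers of other cells, the OSKH 4 array lay far from the other 3 OSKH arrays for 4. Chance alone marks about 1 group in 20, but some of these genes were picked for their values (Irf7 and Irf9) or their likeness to the pathway (Trim12c), so nothing is read from the count. Its level was -1.63 for Trim12c (the others -0.48 to -0.24), 1.52 for Irf9 (2.68 to 2.74), -5.64 for Irf7 (-2.37 to -1.73) and 3.65 for Pml (4.08 to 4.13). Irf7 was not well above background on OSKH 4, so its distance from the other arrays is not measured there. In each case OSKH 4 was the lowest array of its group. None of the 5 pathway genes had an array this far out by the same measure. OSKH 4 is the OSKH array of slide row 2, and the part of slide row in these values was not tested.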

How the results depend on the processing

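The OSKH minus OSK difference of Isg15, Uba7, Ube2l6 and Herc6 stayed above 0 under every alternative run, and that of Usp18 under every one except slide row as a block. Blocking on slide row gave differences of 0.27 for Isg15, 1.06 for Uba7 and -1.14 for Usp18, and 47 features were called between OSKH and OSK, a contrast that then has 1 OSKH array. With normexp they were 0.42 for Uba7 and 0.33 for Herc6, and with the mean of all probes 1.35 for Herc6. Without the filter on dim probes, 9 features were called between ESC and OSK and 11 between ESC and OSKH. With each array left out in turn, Isg15 ran from 1.33 to 2.17, Uba7 from 1.20 to 1.41, Ube2l6 from 0.29 (without OSKH 1) to 0.82, Herc6 from 0.98 to 1.16, and Usp18 from 0.67 (without OSKH 3) to 1.91 (without OSKH 4). With array number as a replicate block, which leaves out OSKH 4, the differences were 2.17 for Isg15, 1.41 for Uba7, 0.82 for Ube2l6, 1.10 for Herc6 and 1.91 for Usp18, and the pairing changed no call. Where only probes well above background on all 8 arrays were kept, Uba7 and Herc6 had no value. The cause of these shifts was not tested. Of 569 values of other named genes, not counting markers of other cells, 542 moved by less than the replicate SD and 27 by more. Of the 36 genes, 9 changed sign somewhere. The precision is limited by the number of arrays, by a single ESC array, by 1 OSKH array in the row of the OSK arrays, and, for Uba7 and Herc6, by signals near background.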
